A study of Mus musculus with 2 samples.

Results

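The microRNA genes described here lie inside Sfmbt2, a protein-coding gene on the plus strand of mouse chromosome 2 (GENCODE M21, build mm10). They were chosen by position: every counted microRNA gene lying wholly within the bounds of Sfmbt2 (ENSMUSG00000061186.15, chr2:10370510-10595253) on its strand. This gave 119 genes of the 2202 in the count tables, or 5.40%, each with a row in both tables. They hold 5 Mir297, 23 Mir466, 14 Mir467 and 29 Mir669 genes, and 48 that carry only a Gm symbol. Small RNA of the gastrocnemius, a calf muscle, was sequenced in 2 libraries of total RNA, with an upper bound of 30 given by the labels for the size range. Both libraries came from females of B6CASTF1/J, the first-generation hybrid between C57BL/6J and CAST/EiJ mice. They were aged 25 days and the labels name no treatment, so the study held 1 group and compared no conditions. The labels number the females separately but give them the same donor identifier, so each SD below measures only the spread between these 2 libraries, which may be technical. The p-values set the reads of 1 library against those of the other and cover counting error only.

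A microRNA gene is transcribed into a hairpin, which Drosha and then Dicer cut into a mature strand that an Argonaute protein carries to messenger RNAs. Bases 2 to 8 of that strand, the seed, pair with the target and define the microRNA's family. Sfmbt2 encodes a Polycomb-group protein and is known for imprinted, paternal expression in the extraembryonic tissues of the mouse. The hairpins in its intron arose by rodent-specific duplication, and one of them, miR-669a, has been described as acting on the muscle regulator MyoD. The counts separate neither parental alleles nor the arms of a hairpin.

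Of the members, 10 had at least 1 count on their own strand and 109 had none in either library. The counted members were Mir467c, Mir467d, Mir467e, Mir669c, Mir669e, Mir669h, Mir669l, Mir669o, Mir466h and Mir466n. Mir467d and Mir467e held 78.3% of the cluster's counts in replicate 1 and 81.2% in replicate 2. For 54 of the 109 members without a count, every 22-base stretch of the hairpin also occurs in another annotated hairpin. A count of 0 there does not separate an unexpressed gene from one whose reads aligned to several places.

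All 119 members fall in 1 intron, chr2:10461473-10523944, which is intron 10 of ENSMUST00000041105.6 and intron 11 of ENSMUST00000116594.8. None overlaps an exon of any of the 7 annotated Sfmbt2 transcripts, and the other 5 transcripts end before the cluster begins. The array runs from Gm22072, the first member (chr2:10465287-10465407), to Mir669h, the last (chr2:10518155-10518279). It thus takes up 53.0 kb, beginning 94.8 kb after the start of Sfmbt2. The median gap between neighbouring hairpins was 206 bases (70 to 2575). The 10 Mir467a copies recur at a median spacing of 2462 bases (2413 to 4880). No microRNA gene on the opposite strand lies inside Sfmbt2, and the opposite-strand columns held 0 reads for the cluster in both libraries.

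The RefSeq table of build GRCm38.p6 gave mature sequences for 8 of the 10 Mir297, Mir466, Mir467 and Mir669 genes that lie outside Sfmbt2. They are shown because they make visible the alternating purine-pyrimidine composition that runs through these families. The seed is in capitals, and each sequence reads 5′ to 3′.
mmu-miR-467g (chr5:34732872-34732892, minus strand): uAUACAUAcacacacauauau
mmu-miR-467f (chr11:69635419-69635439, minus strand): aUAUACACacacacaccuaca
mmu-miR-467h (chr9:115381898-115381919, plus strand): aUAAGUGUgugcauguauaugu
mmu-miR-466i-3p (chr13:17747552-17747573, plus strand): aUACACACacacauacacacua
mmu-miR-466j (chr10:60960802-60960824, plus strand): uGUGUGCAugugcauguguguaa
mmu-miR-466k (chr3:85467396-85467418, plus strand): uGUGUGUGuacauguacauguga
mmu-miR-466q (chr3:28419988-28420007, plus strand): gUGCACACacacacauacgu
mmu-miR-669n (chr3:115979905-115979924, plus strand): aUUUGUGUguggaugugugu
No pair of these shares a seed, and none of the whole sequences occurs in a member hairpin. The 7 letters of the miR-467g seed, AUACAUA, occur somewhere in 78 of 119 member hairpins (65.5%), against 6.49% of all 2202 hairpins. Those of the miR-466j seed, GUGUGCA, occur in 62 members (52.1%, against 4.81%). Those of the miR-466i-3p seed, UACACAC, occur in 60 (50.4%, against 8.17%), including all 7 detected members defined below. Each of the other seeds occurs in 1 to 5 detected members. The seeds of miR-466k, miR-466q, miR-467f and miR-669n occur in 50, 30, 27 and 10 members. These are 42.0%, 25.2%, 22.7% and 8.40%, against 9.54%, 2.63%, 5.13% and 2.59% of all hairpins. The miR-467h seed, UAAGUGU, occurs in 1 member. Such a match is a description of the hairpin's letters and does not place a mature strand.

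The same composition ran through the members. A median of 82.6% of neighbouring bases in a member hairpin switched between purine and pyrimidine (64.3% to 94.6%), against 44.0% in the other microRNA genes. Their median GC content was 37.3%, against 51.7%. For 47 members the whole hairpin was identical to that of another member, with 16 distinct sequences among them and up to 9 members with one sequence. At the level of 22-base windows, about the length of a mature strand, 116 members shared a window with another member. Of the 48 members with only a Gm symbol, 46 shared a window with a named member, 43 of them with a Mir669 gene.

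A window was called single-place when it occurred once among all 2202 annotated hairpins, on both strands. Introns and intergenic sequence were not searched, so single-place is an upper limit for exact matches to build mm10. Sequence differences of CAST/EiJ and mismatched reads were not examined, so the copy that a counted read came from is not certain. Of the 9717 windows in the cluster, 2790 (28.7%) were single-place, 6820 (70.2%) recurred only inside the cluster and 107 (1.10%) had a copy outside it. By member, 54 had no single-place window, 63 had some and 2 had all windows single-place. All 10 Mir467a copies had no single-place window, as had 11 of 12 Mir669a copies and 6 of 8 Mir466b copies, and no copy of these 3 genes held a count. Among the other 2083 microRNA genes, 11.7% had no single-place window, against 45.4% of the cluster.

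**Figure D1:**
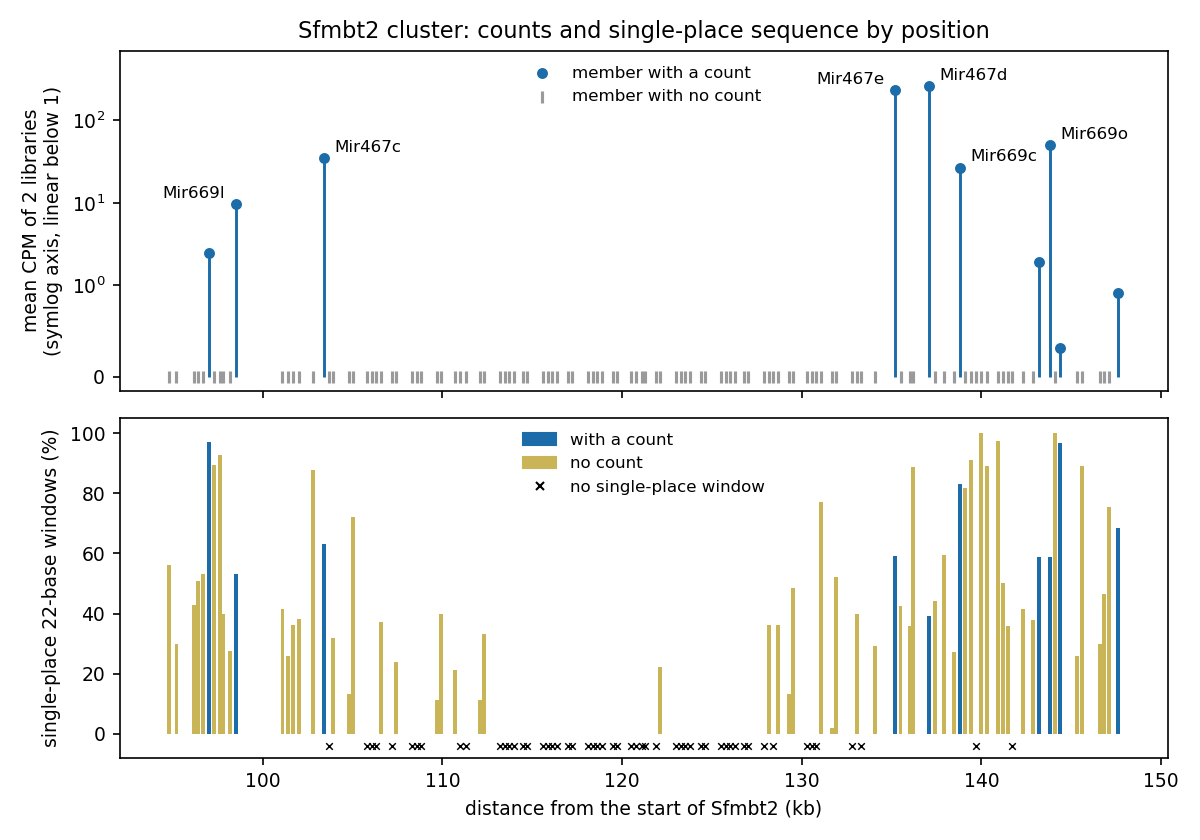
The upper panel plots the mean CPM of the 2 libraries (symlog axis) for each member against its distance from the start of Sfmbt2 in kb, with grey ticks for members at 0. The lower panel plots the percentage of single-place 22-base windows in each hairpin, with a cross for none. The counted members stand near both ends of the array, and the 72 members between Mir467c and Mir467e are at 0.

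Counted members lay towards the ends of the array. The longest run of consecutive members without a count held 72 genes over 30.6 kb, from Mir466b-1 to Gm26398 (chr2:10474219-10504773). Of these, 52 had no single-place window and 20 had some. The 17 members before the run held 3 counted genes and 7.69% and 7.40% of the cluster's counts in replicates 1 and 2. The 30 members after it held 7 counted genes and 92.3% and 92.6%. Members without a single-place window numbered 0 before the run and 2 after it.

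Each count below was divided by the library's total over all microRNA genes and scaled to counts per 1000000 (CPM). These totals were 1573213 in replicate 1 and 5429127 in replicate 2, so a count of 0 allows a level of up to 1.91 and 0.553 CPM of reads that could be counted, from counting error alone. The tables also tally reads that aligned to several places, which are given to no gene: 68.6% and 69.7% of all reads. The labelled tissue was checked on 9 striated-muscle microRNA genes, all of which were detected. Their summed levels were 36362 and 74995 CPM. Of the 11 matched genes known from the early embryo and pluripotent cells, 0 were detected, 6 had no count and the summed levels were 1.27 and 2.76 CPM.

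The cluster held 1145 counts in replicate 1 and 2809 in replicate 2. This was 0.0728% of microRNA-gene counts (exact binomial 95% interval 0.0686 to 0.0771) and 0.0517% (0.0498 to 0.0537), with a mean of 0.0623% ± 0.0149 (SD, n = 2). On the CPM scale the summed level was 623 ± 149 (SD, n = 2). For each cluster count the tables tally 4411 multi-place reads in replicate 1 and 5978 in replicate 2. How many of them came from this array is not recorded in the tables.

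With detection set at 2 CPM or more in both libraries, 7 of 119 members (5.88%) were detected, beside 14.7% of all 2202 genes. Counts in both libraries were found for 9 members, beside 21.3% of all genes, and in either library for 10 (8.40%), beside 30.2%. Read within the class of genes with some single-place windows, 7 of 63 members were detected (11.1%), beside 8.53% of all 750 genes of that class. In that class 10 of 63 members (15.9%) had a count, beside 13.7%. This class holds all counted members of the cluster, and the differences between these shares were not tested. In the class without a single-place window, 0 of 54 members had a count, beside 1.35% of all 297 such genes (0.337% detected). Where all windows were single-place, 0 of 2 members were detected, beside 22.4% of 1155 genes, and 0 had a count, beside 48.2%.

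Most of the cluster's counts fell on Mir467 genes. Mir467d (ENSMUSG00000077021.2, chr2:10507630-10507714) had 475 counts in replicate 1 and 1202 in replicate 2, or 302 and 221 CPM, with a mean of 262 ± 56.9 (SD, n = 2). It was the highest counted member in both libraries and ranked 127 by mean CPM among all 2202 genes. Of its own 64 windows, 25 were single-place. The 54 members without a single-place window had no count, so their levels cannot be set against it. Mir467e (ENSMUSG00000076948.2, chr2:10505721-10505807) had 422 and 1078 counts, or 268 and 199 CPM, with a mean of 233 ± 49.3. The 2 genes lie close together, just after the longest stretch of members without a count. The CPM of Mir467d exceeded that of Mir467e by a ratio of 1.13 (95% interval 0.985 to 1.29) in replicate 1 and 1.12 (1.03 to 1.21) in replicate 2, while their ranges over the libraries overlapped. Mir467c (ENSMUSG00000077049.2, chr2:10473931-10474027), at the other end of the array, had 68 and 146 counts, or 43.2 and 26.9 CPM, with a mean of 35.1 ± 11.5. Mir467b and the 10 Mir467a copies had no counts. Mir467b had 11 single-place windows of 52.

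Of the 29 Mir669 members, 5 were counted. Mir669o (ENSMUSG00000077086.1, chr2:10514300-10514395) had 100 and 203 counts, or 63.6 and 37.4 CPM, with a mean of 50.5 ± 18.5. Mir669c (ENSMUSG00000076118.1, chr2:10509296-10509404) had 53 and 108 counts, or 33.7 and 19.9 CPM, with a mean of 26.8 ± 9.76. Both were higher in replicate 1. Mir669l (ENSMUSG00000076959.1, chr2:10468971-10469068) had 16 and 49 counts, or 10.2 and 9.03 CPM, with a mean of 9.60 ± 0.810. Mir669e (ENSMUSG00000080653.1, chr2:10467495-10467613) had 4 and 13 counts, or 2.54 and 2.39 CPM, with a mean of 2.47 ± 0.105. These 2 genes, near the start of the array, were close to equal in the libraries on the CPM scale, but from few counts. The 95% interval of the log2 ratio of replicate 2 to replicate 1 was -1.01 to 0.74 for Mir669l and -1.78 to 1.99 for Mir669e. Both intervals include the -0.77 of Mir669o and Mir669c. Mir669h (ENSMUSG00000080594.1) had 2 and 3 counts, below the detection level in both libraries. The 12 Mir669a copies, members of the miR-669a family named above, held no counts, and 11 of them had no single-place window.

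Of the 23 Mir466 members, 2 had counts and none was detected. Mir466n (ENSMUSG00000077991.1, chr2:10513741-10513834) had 4 and 7 counts, or 2.54 and 1.29 CPM. Mir466h (ENSMUSG00000077941.1, chr2:10514891-10514971) had 1 count in replicate 1 and 0 in replicate 2. The 5 Mir297 members and the 48 members with only a Gm symbol had no counts. All 5 Mir297 members had some single-place windows.

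**Figure D2:**
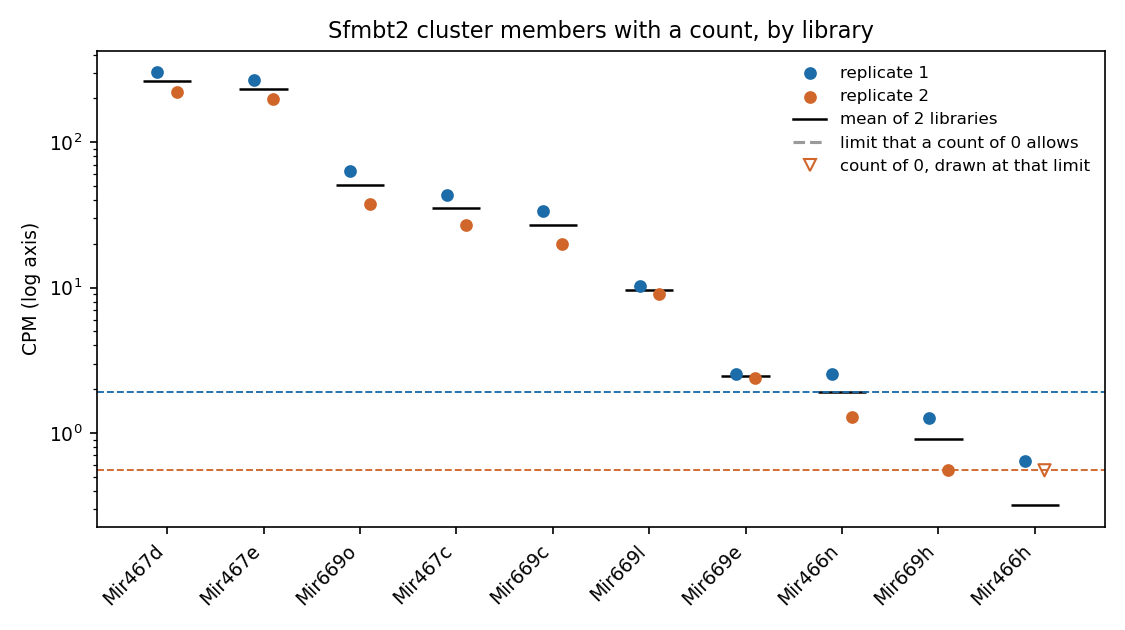
Points give the CPM (log axis) of each counted member in replicate 1 and replicate 2, bars give the mean of both, and dashed lines give the level that a count of 0 allows in each library. Mir467d and Mir467e lie between 199 and 302 CPM, above all other counted members in both libraries. The open triangle marks the count of 0 of Mir466h in replicate 2.

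The 7 detected members stood in the same order in both libraries: Mir467d, Mir467e, Mir669o, Mir467c, Mir669c, Mir669l and Mir669e. The order was also the same per base of hairpin, but dividing by length could not change the 3 closest steps. In them the lower member had the longer hairpin, at 87 against 85 bases, 97 against 96 and 109 against 97. The highest mean was 106 times the lowest. In 3 cases a step in the order exceeded the larger SD of the pair with no overlap of their CPM, namely Mir467e over Mir669o, Mir669c over Mir669l and Mir669l over Mir669e. The ratio of Mir467e to Mir669o was 4.22 in replicate 1 and 5.31 in replicate 2. For Mir467d and Mir467e, Mir669o and Mir467c, and Mir467c and Mir669c the CPM ranges over the libraries overlapped. Within each library, Mir669o exceeded Mir467c by a ratio of 1.47 (95% interval 1.07 to 2.03) in replicate 1 and 1.39 (1.12 to 1.73) in replicate 2. Mir467c exceeded Mir669c by a ratio of 1.28 (0.883 to 1.87) and 1.35 (1.05 to 1.75). These intervals cover counting error only. The median mean level of the detected members was 35.1 CPM, against 130 CPM over all 324 detected genes, and 126 detected genes lay above Mir467d. All 7 have only some windows single-place, and over the 64 detected genes of that class the median was 49.0 CPM. It was 154 CPM over the 259 detected genes with all windows single-place.

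Members without a count were of different kinds. Of the 65 members with at least 1 single-place window, 55 had no count: 5 Mir297, 12 Mir466, 1 Mir467, 11 Mir669 and 26 Gm genes. Whether reads from their single-place stretches had only 1 place in the genome was not examined, so these zeros do not bound the genes' levels. Which stretch holds the mature strand was not examined. Gm22239 (ENSMUSG00000092961.1, chr2:10510461-10510563) and Mir466g (ENSMUSG00000078025.1, chr2:10514595-10514674) had all of their 82 and 59 windows single-place among the hairpins and no counts. With other annotated transcripts searched too, a search added after the data were seen, Mir466g kept 58 single-place windows and Gm22239 all 82.

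Among the 63 members with some single-place windows, the counted ones had the larger unrepeated share. It ran from 39.1% to 96.9% with a median of 61.1% in the 10 counted members, and from 1.89% to 97.3% with a median of 40.0% in the 53 without a count. The ranges overlap, and shares of at least 50% were found in 9 of 10 and 18 of 53. Mir467d, the highest counted member, had the lowest share of the 10, 39.1%.

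Relative to library totals, the cluster was 1.41-fold higher in replicate 1. The log2 ratio of replicate 2 to replicate 1 was -0.49 (95% interval -0.59 to -0.39, counting error only), against a median of -0.15 over all 324 detected genes, a difference of -0.34. The quartiles over those 324 genes were -0.45 and 0.11. The median of the 7 detected members was -0.45, at the lower of these quartiles. Scaling by edgeR's TMM or DESeq2's size factors moved every ratio by 0.18 and 0.20, so the cluster stood at -0.31 and -0.29 and the median of all genes at 0.03 and 0.05. Without Mir467d and Mir467e the ratio of the remaining members was -0.70.

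Single members were compared by a two-sided exact binomial test with Benjamini-Hochberg adjustment over all 364 genes with at least 10 counts, which compares these 2 libraries and not conditions. Of 8 members tested, 5 were higher in replicate 1, beside 30.2% of all genes tested, and 3 did not pass. Over both directions 45.3% of all genes passed. None was higher in replicate 2, at the adjusted threshold or at an unadjusted p under 0.05, beside 15.1%. The 5 were Mir467d (log2 ratio -0.45, adjusted p = 1.04e-07 by the exact binomial test), Mir467e (-0.44, 1.42e-06), Mir669o (-0.77, 9.15e-05), Mir467c (-0.69, 0.00510) and Mir669c (-0.77, 0.00647). Mir669l (-0.20), Mir669e (-0.20) and Mir466n (-1.05) did not pass, with adjusted p of 0.816, 1.00 and 0.426 by the same exact test. With DESeq2's size factors Mir467c no longer passed (-0.49, adjusted p = 0.0557 by the exact binomial test, range over its alternatives 0.00510 to 0.0557). The median ratio of the 8 was -0.57, against -0.15 over all genes tested.

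**Figure D3:**
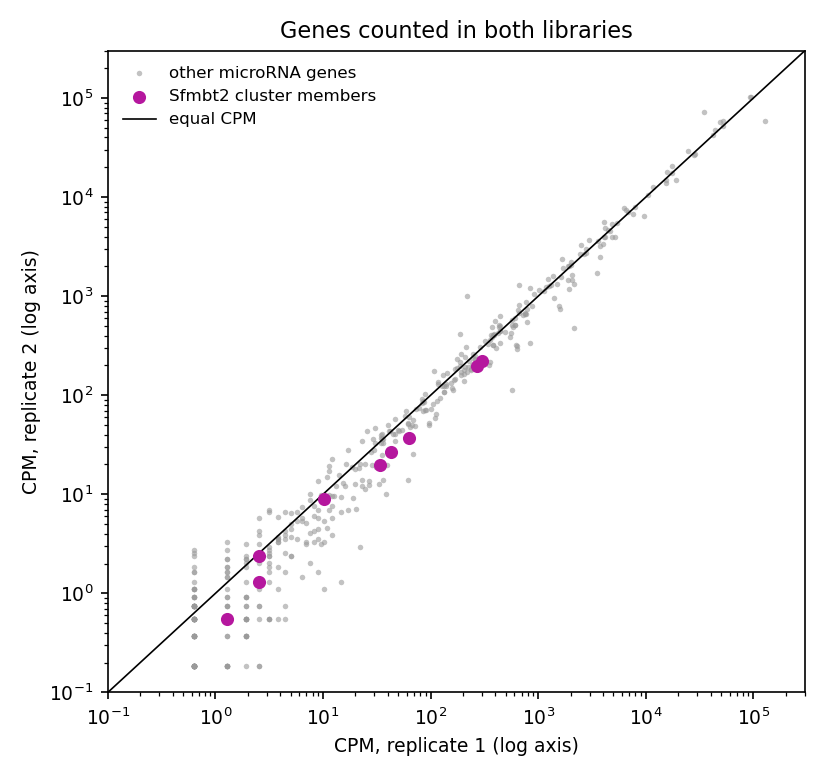
Each point is a microRNA gene counted in both libraries, with its CPM in replicate 1 on the x axis and in replicate 2 on the y axis (log axes) and the line of equal CPM. All 9 cluster members shown in colour lie below the line, and the 5 that passed the test lie between 33.7 and 302 CPM in replicate 1.

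Markers of other cell types also differed between the libraries. The summed level of 5 smooth muscle and fibroblast genes, 4 of them detected and none at 0, was 132824 CPM in replicate 1 and 63364 in replicate 2. Most of it was Mir143 (127590 and 59272 CPM), while Mir214 of the same list went the other way (1674 and 2355 CPM). That of 2 red blood cell genes, both detected, was 2703 and 587 CPM. For 4 white blood cell genes, all detected, it was 2701 and 2002 CPM, and for 7 epithelial genes, 4 of them detected and none at 0, it was 445 and 236 CPM. In the white blood cell list Mir142 (839 and 336 CPM) and Mir223 (406 and 298 CPM) were higher in replicate 1. Mir155 (882 and 789 CPM) was also higher in replicate 1, by a log2 ratio of -0.16, while Mir150 (574 and 579 CPM) did not pass the exact binomial test. For 7 nerve genes the summed level was 1581 and 750 CPM. Nearly all of the nerve sum was Mir338, while Mir124a-1, Mir124a-2, Mir124a-3 and Mir9-2 were at 0. These sums were higher in replicate 1, as the cluster was. The endothelial gene Mir126a was lower there (93328 and 103367 CPM), as was the striated-muscle sum. That sum was mostly Mir206 (34864 and 72482 CPM). Mir208b (219 and 994 CPM), Mir499 (188 and 416 CPM), Mir133a-1 and Mir486 of the same list were also higher in replicate 2. Mir1a-1 and Mir133b were closer to equal. Mir1a-2 (378 and 318 CPM) and Mir133a-2 (7.63 and 2.03 CPM) were higher in replicate 1. The part of these genes in the cluster's difference was not tested. In such bulk samples, fewer cells of a type and less RNA per cell cannot be told apart.

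The array was set beside the imprinted microRNA array between Meg3 and Mirg on chromosome 12, which has 59 genes on the strand of Meg3. There 54 of 59 genes had all windows single-place, against 2 of 119 in the Sfmbt2 cluster, and 46 (78.0%) were detected. That array held 8.15% and 9.50% of microRNA-gene counts. The 10 Mir297, Mir466, Mir467 and Mir669 genes outside Sfmbt2 each had some or all windows single-place, and 0 were detected. Mir466q had 1 count in replicate 2 and the others had none. Among those Mir669n had all windows single-place.

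**Figure D4:**
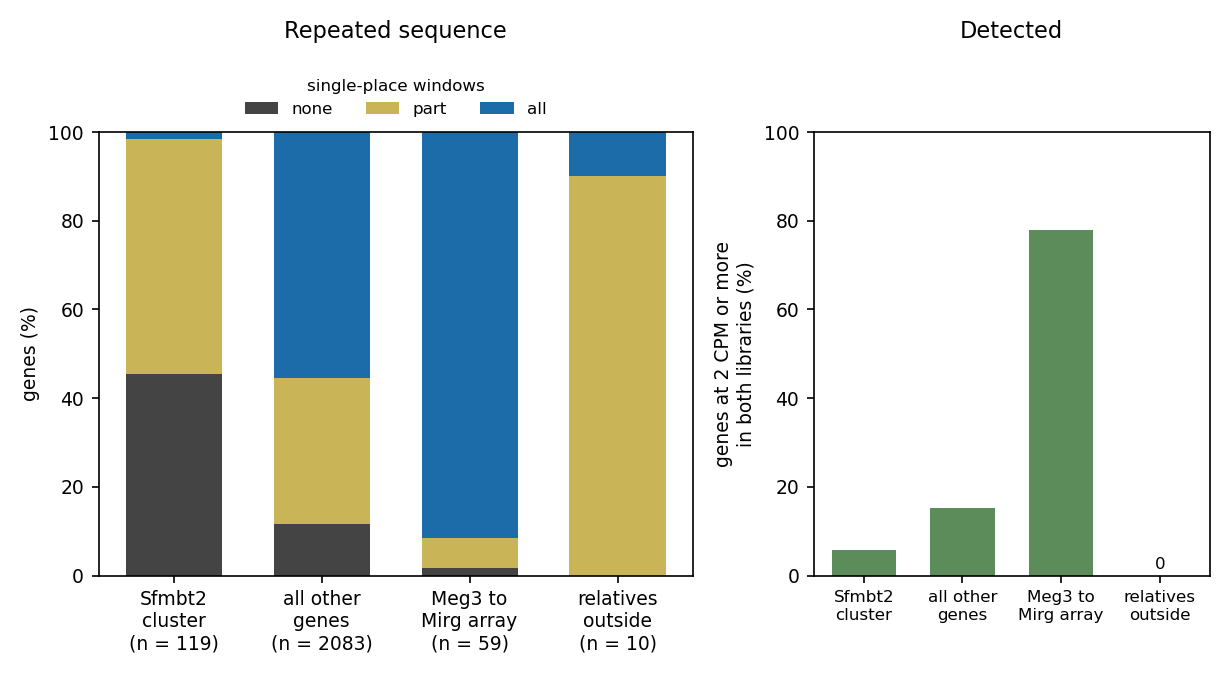
The left panel stacks the percentage of genes with none, part or all of their 22-base windows single-place, for the cluster (119 genes), all other microRNA genes (2083), the Meg3 to Mirg array (59) and the relatives outside Sfmbt2 (10). The right panel gives the percentage detected at 2 CPM or more in both libraries, which was 5.88% for the cluster, 15.2% for all other genes, 78.0% for the array and 0 for the relatives.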

How the data were processed

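For each library the authors deposited raw counts, in 3 columns that hold, from the values, reads on either strand, on the gene's strand and on the opposite one. The 4 tally rows stayed out of library totals. Per the labels the build was mm10, and per the deposited readme files the annotation was GENCODE M21. Aligner and counting tool: not given in the sources used here. GENCODE M21 gave the symbols, positions and hairpins of all 2202 genes. The gene-strand column was used. CPM are counts per 1000000 over all gene rows. Windows of 22 bases were sought in the 2202 hairpins on both strands, since no genome was used here.

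Genes with at least 10 summed counts were compared by an exact binomial test, two-sided, whose odds were the library totals, with Benjamini-Hochberg adjustment at 0.05. Log2 ratios used an offset of 0.5 counts. Shares carry exact (Clopper-Pearson) 95% intervals, and a count of 0 allows up to 3 counts. Intervals, limits and p-values cover counting error only, since reads without molecular identifiers are not independent molecules. The test and the window search were tested on simulated data, drawn with counting error only. The test called 40 of 61 genes changed 3-fold, 26 of 48 changed 1.5-fold and 0 of 272 unchanged. With at least 100 counts it called 33 of 33 genes changed 3-fold. The recovery asked for was limited to such genes after the first result was seen, so low-count genes can be missed. Named members were those detected, those past the test, the counted rest, those with all windows single-place and no count, and the first and last. Members and lists were chosen with earlier results of these data known. Software was scipy 1.17.1, pandas 2.3.3, matplotlib 3.10.9 and numpy 2.4.6 in Python 3.11.15, with edgeR 4.0.16 and DESeq2 1.42.0 in R 4.3.3 for other scalings only.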

Additional observations from a re-analysis of the deposited data

Results flagged for a closer look

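Reads that aligned to several places, which the comparisons of genes did not use, were 68.6% of the total in replicate 1 and 69.7% in replicate 2. They are tallied without a gene, and the share that came from the Sfmbt2 hairpins was not tested.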

How the results depend on the processing

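Among the alternatives for the cluster's counts of members, share and ratio, 28 stayed near the reported count, or within the SD or interval of the reported value, and 5 moved further. The cluster's share was 0.0812% with the either-strand column and 0.0146% over all aligned reads. In the either-strand column the cluster's own counts were unchanged (1145 and 2809), so that share moved only through the total over all genes. Its log2 ratio was -0.31 with TMM, -0.29 with DESeq2's size factors and -0.70 without Mir467d and Mir467e, the last chosen after seeing the data. Leaving out either replicate gave 7 to 8 detected members and a share of 0.0517% to 0.0728%. These alternatives are among the 28 but could not have moved the share beyond the SD, since each of 2 libraries lies within the SD of their mean. Nor could they lower the number detected, which requires both libraries. Between 5 and 8 members were detected over the CPM minimums and denominators tried. With windows of 18, 20 or 24 bases, or with other transcripts searched, 54 members had no single-place window. These were the same members, since a repeated window also repeats every shorter one inside it. The added search could likewise only remove single-place windows. For single members and for members with counts in both libraries, 35 alternatives kept direction, call or count, and in 1 Mir467c lost its call, as given above. The class from mature sequences was not run, since no mature sequence of a member was used. No paired analysis was possible because the libraries form 1 group. Depth limits the members under 10 counts, above all in replicate 1.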
